A study of Rattus norvegicus with 12 samples.

Results

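The miR-99, miR-100 and miR-125 family was followed in small RNA libraries from rat gastric mucosa. Members were chosen by name alone: every mature miRNA called miR-99a, miR-99b, miR-100, miR-125a or miR-125b, from either arm of the hairpin, was taken. That gave 11 of the 648 miRNAs counted in the study, made up of 5 arms from the 5′ side of a hairpin (5p) and 6 from the 3′ side (3p). The XLHZ group (4 libraries) came from rats that drank N-methyl-N'-nitro-N-nitrosoguanidine (MNNG, a mutagen used to produce gastric lesions) for 24 weeks and were given Xianglianhuazhuo formula, a traditional Chinese medicine, for 60 days. The model group (4 libraries) had the MNNG for 24 weeks without the formula. The protocol for making the model applied to the XLHZ and the model group alike. It gave MNNG at 180 µg/ml in the drinking water, gavage of 2% sodium salicylate and a cycle of 2 days of food and 1 day of fasting. The normal group (4 libraries) was untreated. Strain and age are not stated in the labels. Nothing there says that each library is from its own rat, and the p-values therefore reflect variation among libraries that may be technical.

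The family is encoded in clusters in which a miR-99 or miR-100 hairpin, a let-7 hairpin and a miR-125 hairpin lie on the same strand. A miRNA pairs with target mRNAs mainly through its seed, bases 2 to 8 counted from the 5′ end, and lowers their translation and stability. The miR-99 and miR-100 5p arms are known for repressing mTOR, IGF1R and FGFR3. The miR-125 5p arms are the mammalian relatives of worm lin-4 and are known for repressing LIN28 and pro-apoptotic genes such as BAK1. let-7, which shares the clusters, is known for repressing LIN28, RAS and HMGA genes.

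Of the 11 members, 10 had a mature sequence in the RefSeq table for build GRCr8, and miR-99a-5p is the one named only. The 5p arms are shown because they are the abundant products and because their seeds divide the family, and the seed is in capitals. The last line is a relative from outside the family, which is used further on.
miR-100-5p: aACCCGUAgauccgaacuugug
miR-99b-5p: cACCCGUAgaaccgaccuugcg
miR-125b-5p: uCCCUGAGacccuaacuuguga
miR-125a-5p: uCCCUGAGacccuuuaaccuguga
miR-10a-5p: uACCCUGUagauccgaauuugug
miR-100-5p and miR-99b-5p share the seed and were identical at 18 of 22 positions, counted from 1 at the 5′ end, with the substitutions A1C, U11A, A16C and U21C from miR-100-5p to miR-99b-5p. miR-125b-5p and miR-125a-5p share their first 13 bases. Among 693 mature names in the RefSeq table, the miR-125 seed occurred in 3, which are miR-125a-5p, miR-125b-5p and miR-351-5p. Set against miR-10a-5p without its first base, miR-100-5p was identical at 19 of 22 positions, so that the miR-10 seed is a version of the miR-100 seed displaced along a nearly equal sequence.

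The 3p arms are shown because they tell apart hairpins whose 5p arm is the same. miR-125b-5p is cut from hairpins at 2 loci, while each locus has a 3p arm of its own.
miR-125b-1-3p: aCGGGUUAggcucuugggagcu
miR-125b-2-3p: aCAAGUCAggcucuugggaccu
miR-99a-3p: cAAGCUCGuuucuaugggucug
miR-99b-3p: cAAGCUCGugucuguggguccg
miR-125a-3p: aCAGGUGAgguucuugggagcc
miR-100-3p: cAAGCUUGugucuauaggu
The 3p seeds of the miR-125 arms differ from each other, whereas miR-99a-3p and miR-99b-3p share theirs and were identical at 19 of 22 positions (U10G, A14G and U21C from miR-99a-3p to miR-99b-3p).

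The 6 hairpin genes lie in 3 clusters, all on the plus strand of GRCr8. Mir100, Mirlet7a-2 and Mir125b1 lie at chr8:50798295-50850122, a span of 51.8 kb within the annotated genes Mir100hgl and Lnc215 (a long noncoding RNA). Mir99a, Mirlet7c1 and Mir125b2 lie at chr11:29687392-29732648, a span of 45.3 kb from the start of the Mir99a hairpin to the end of the miR-125b-2-3p arm, within a long noncoding RNA, LOC103693508. Mir99b, Mirlet7e and Mir125a lie within 696 bases at chr1:67350064-67350759, inside the span of the protein-coding gene Spaca6. The hairpins of the chromosome 8 cluster that carry members are shown with both arms in capitals. miR-100-5p and miR-125b-1-3p, which are cut from them, had the lowest log2 fold changes of the family in XLHZ against model, with all libraries kept.
Mir100: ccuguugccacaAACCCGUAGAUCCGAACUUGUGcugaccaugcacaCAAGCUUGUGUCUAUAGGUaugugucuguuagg
Mir125b1: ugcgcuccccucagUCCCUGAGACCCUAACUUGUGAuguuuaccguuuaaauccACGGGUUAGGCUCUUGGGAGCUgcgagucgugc

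The libraries held between 9095260 and 11556061 counts assigned to miRNAs. Levels are given as CPM, the count scaled to a common library total, after scaling for composition with the trimmed mean of M values (TMM), whose factors ran between 0.8172 and 1.137. The lowest factors, 0.8172 and 0.8354, belonged to model libraries 3 and 2. These 2 libraries also stood apart in miRNAs of muscle. The 4 smooth muscle markers (both arms of miR-143 and miR-145) summed to 403505 CPM in model library 2 and 356150 CPM in model library 3, against 97611 to 277213 CPM in the XLHZ libraries and 133247 to 219379 CPM in the normal libraries. Model libraries 1 and 4 had 215562 and 145152 CPM of these markers. Of 8 striated muscle markers 7 were counted, and they summed to 4650 to 13294 CPM in XLHZ, 7023 to 24458 CPM in model and 6384 to 10096 CPM in normal libraries. The 8 epithelial markers, such as miR-200a-3p and miR-375-3p, were all present, at 96612 to 113111 CPM in XLHZ, 73459 to 113235 CPM in model and 91615 to 111234 CPM in normal libraries. The lowest of these epithelial sums, 73459 CPM, was in model library 2, and the highest, 113235 CPM, in model library 3. These 2 libraries were therefore alike in muscle markers but not in epithelial markers. No counted marker was at 0 in every library. Model libraries 2 and 3 were kept in the main fits, and the fold changes that turned sign without them are also given without them. In bulk tissue, fewer cells of a type and less RNA per cell cannot be told apart.

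Most of the family's counts came from 5p arms of the miR-125 branch. Together the members made up 4.42 ± 0.501% of the counts in XLHZ, 4.97 ± 0.937% in model and 4.95 ± 0.483% in normal libraries (SD, n = 4 each). The miR-125 5p arms took 3.69 ± 0.42% in XLHZ, 4.25 ± 0.903% in model and 4.11 ± 0.413% in normal libraries, while the miR-99 and miR-100 5p arms took 0.721 ± 0.0945%, 0.707 ± 0.140% and 0.827 ± 0.0811% in the same groups.

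The order of the 5p arms by mean CPM over the 12 libraries was miR-125b-5p, miR-125a-5p, miR-99a-5p, miR-99b-5p and miR-100-5p, and each exceeded the next in 12 of 12 libraries. miR-125b-5p ranked 9 among all miRNAs, with 19673 to 48480 CPM across the libraries, and its mean was 2.19 times that of miR-125a-5p (rank 18). miR-99a-5p (rank 38) had a mean 3.87 times that of miR-99b-5p (rank 69), and miR-100-5p (rank 88) had the lowest level of the 5p arms. The ranges of those last 2 neighbours overlapped, since the lowest miR-99b-5p value was 1057 CPM and the highest miR-100-5p value 1154 CPM. The 3p arms were far rarer, led by miR-125b-2-3p at 33.8 to 73.9 CPM, and miR-125b-2-3p exceeded the next, miR-99a-3p, in 10 of 12 libraries. miR-99b-3p, miR-125b-1-3p and miR-125a-3p followed with overlapping ranges, and miR-125b-1-3p exceeded miR-125a-3p in 6 of 12. miR-100-3p had 1 count over all 12 libraries, in model library 4, and could not be tested. Levels of different miRNAs also depend on how well each is captured in library preparation, which was not measured.

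**Figure D1:**
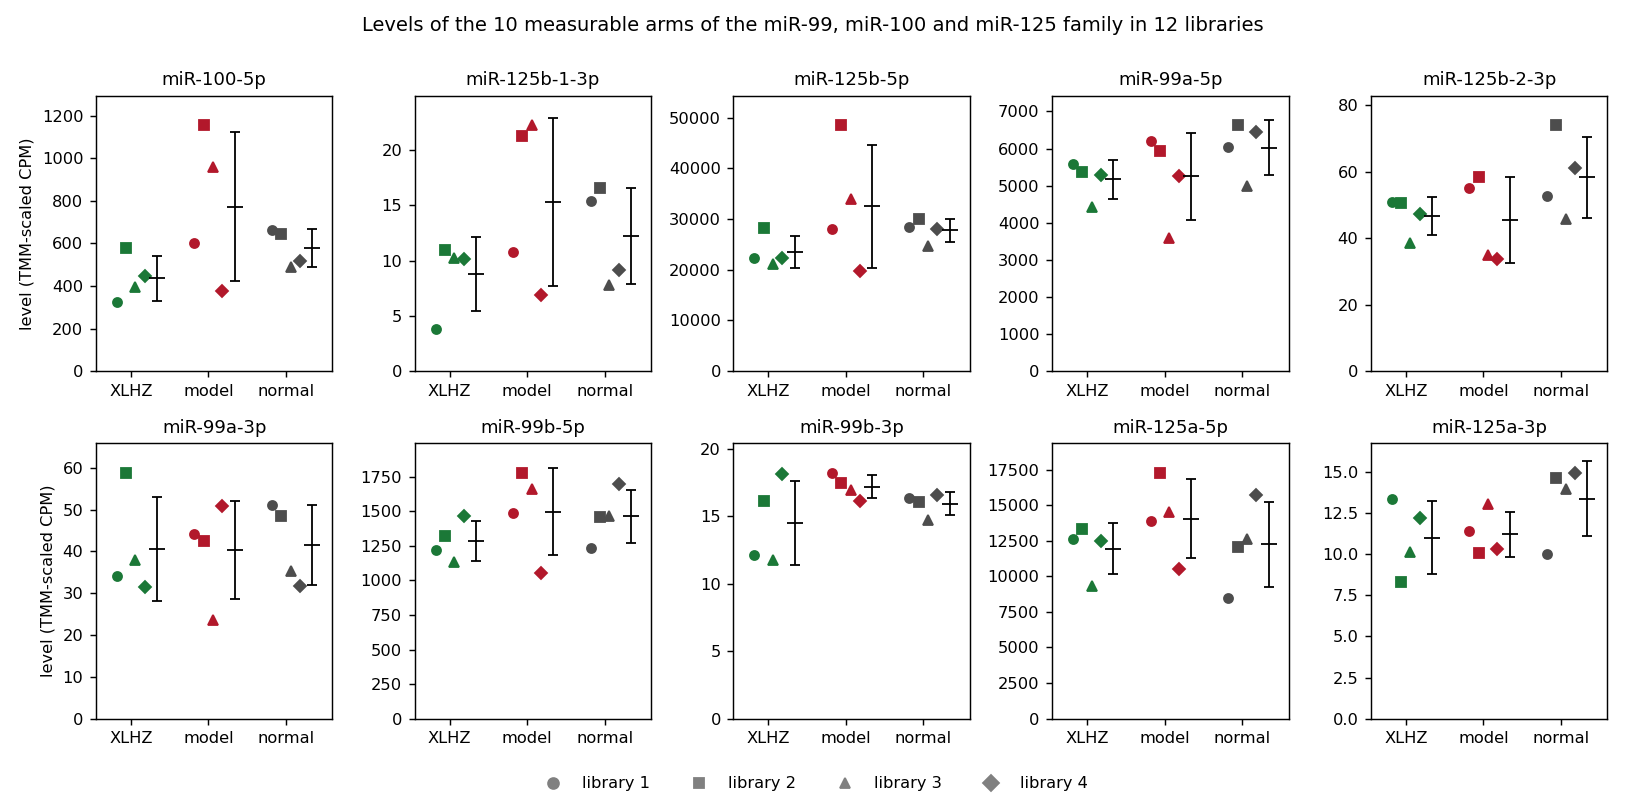
Level of the 10 tested members in TMM-scaled CPM, in 1 panel per member with its own linear axis from 0, 1 symbol per library, and the mean with its SD beside each group (XLHZ, model, normal, 4 libraries each). The groups overlap in every panel, and for miR-100-5p the model libraries cover 377 to 1154 CPM.

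No member passed the test in any of the 3 comparisons, in which each miRNA was compared between 4 and 4 libraries with edgeR's quasi-likelihood test and Benjamini-Hochberg adjustment over all tested miRNAs at a threshold of 0.05. In XLHZ against model libraries 0 of 10 tested members passed, where 0.249% of 402 miRNAs did. In model against normal libraries 0 of 10 passed, where 0.248% of 403 did. In XLHZ against normal libraries 0 of 10 passed, where 1.5% of 401 did. DESeq2, run as another tool, also passed 0 of 10 members in each comparison, where it passed 0.251% of all miRNAs for XLHZ against model, 1.75% for model against normal and 1.75% for XLHZ against normal. At an unadjusted p under 0.05 edgeR marked 1 of 10 members in XLHZ against model (4.23% of all miRNAs), 0 of 10 in model against normal (7.2%) and 2 of 10 in XLHZ against normal (8.73%). No member had libraries of a pair of groups that did not overlap. Such separation was seen in 0.998% (higher) and 0.249% (lower) of all miRNAs for XLHZ against model, in 1.49% and 1.99% for model against normal, and in 3.99% and 2.24% for XLHZ against normal.

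Most members had log2 fold changes below 0 in both comparisons of the XLHZ libraries, though with library totals fewer did in XLHZ against model. In XLHZ against model 9 of 10 members were below 0, where 49% of all miRNAs were, and their median was -0.247, against 0.00573 over all. With library totals in place of TMM, which moves the median of all miRNAs to 0.167, 6 of 10 were below 0 and the members' median was -0.0476. Without model libraries 2 and 3 it was -0.0776, with 9 of 10 below 0. In XLHZ against normal 10 of 10 were below 0, where 50.9% of all miRNAs were, with a median of -0.262, against -0.00399 over all. With upper-quartile factors 9 of 10 were below 0. In model against normal 6 of 10 were above 0, where 49.1% of all miRNAs were, with a median of 0.0679, against -0.00718 over all. That median was -0.186 without model libraries 2 and 3, and -0.0693 with library totals, where 4 of 10 were above 0. XLHZ against model and model against normal share the model libraries, and XLHZ against normal shares libraries with each of the others. Members cut from 1 transcript or nearly equal in sequence are not independent of each other.

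**Figure D2:**
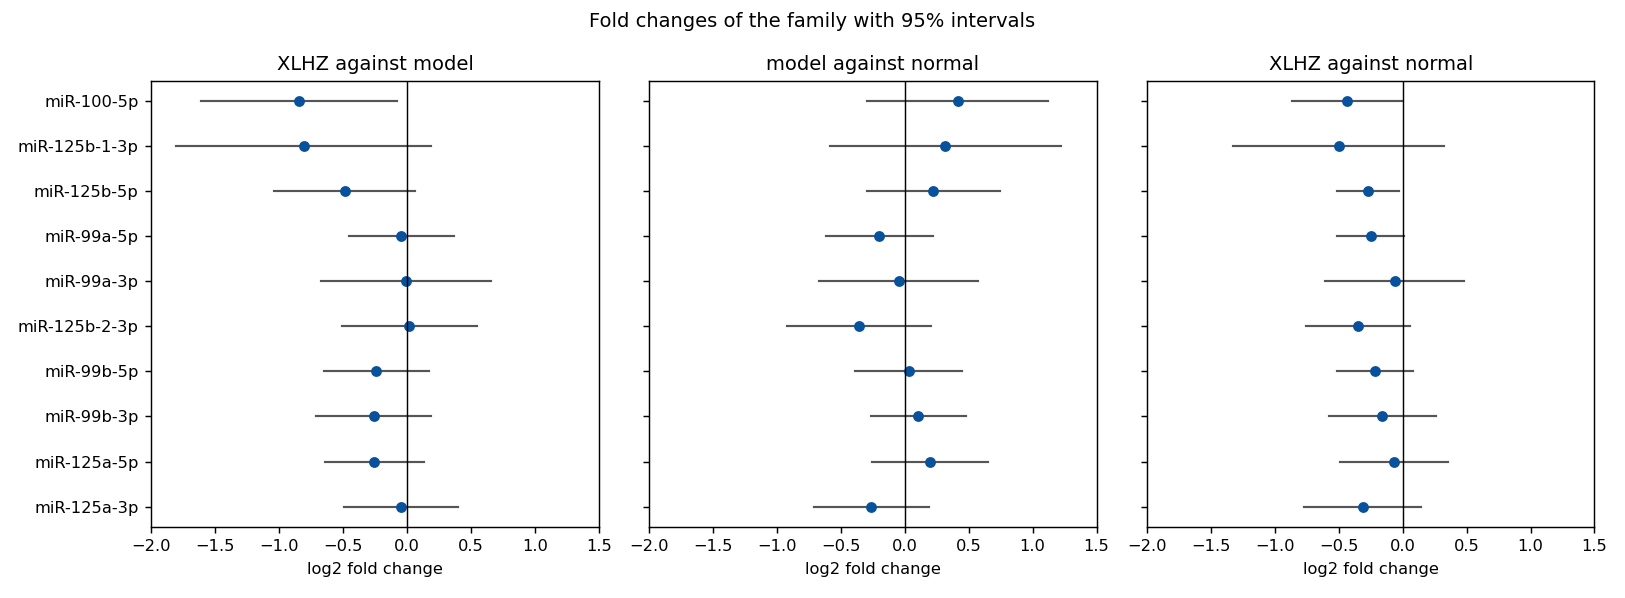
Log2 fold change of the 10 tested members in each comparison, from edgeR with TMM scaling, with points for the estimates and lines for the 95% interval. miR-100-5p has the lowest value in XLHZ against model, -0.84.

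The chromosome 8 products, miR-100-5p and miR-125b-1-3p, had the lowest log2 fold changes of the family in XLHZ against model and in XLHZ against normal. The first ranking rested on model libraries 2 and 3, and the second on XLHZ library 1. Without model libraries 2 and 3 the lowest values in XLHZ against model were -0.29 for miR-99b-3p and -0.28 for miR-99a-3p. With them miR-99b-3p stood at -0.26. miR-100-5p (rno-miR-100-5p in the tables) had 323, 577, 397 and 445 CPM in XLHZ libraries 1 to 4, 600.1, 1154, 959.9 and 377 CPM in model libraries 1 to 4, and 665, 643, 487 and 518 CPM in normal libraries 1 to 4. Model libraries 2 and 3 were the highest of the 12, model library 4 lay among the XLHZ values, and the groups overlapped. The means were 436 ± 107 CPM in XLHZ, 773 ± 349.6 CPM in model and 578 ± 88.9 CPM in normal libraries (SD, n = 4 each). The log2 fold change of XLHZ against model was -0.84 (SE 0.34, 95% interval -1.61 to -0.074), at an adjusted p of 0.729 and an unadjusted p of 0.0349 by edgeR's quasi-likelihood model. It was -0.21 without model libraries 2 and 3, and -0.57 without model library 2 alone. Against normal libraries, model libraries gave 0.41 (SE 0.32, adjusted p 0.685), and -0.22 without model libraries 2 and 3. XLHZ against normal gave -0.44 (SE 0.19, interval -0.87 to -0.0037, adjusted p 0.552 by edgeR), and -0.30 without XLHZ library 1.

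miR-125b-1-3p, which comes from the other member hairpin of that cluster, had 3.77, 10.9, 10.2 and 10.2 CPM in XLHZ libraries 1 to 4, 10.8, 21.3, 22.3 and 6.93 CPM in model libraries 1 to 4, and 15.4, 16.6, 7.83 and 9.15 CPM in normal libraries 1 to 4. XLHZ library 1 was lowest, model libraries 2 and 3 were highest and the groups overlapped. On the log2 scale XLHZ against model differed by -0.81 (SE 0.44, adjusted p 0.729 by edgeR), with 0.32 (SE 0.40, adjusted p 0.826) for model against normal and -0.50 (SE 0.37) for XLHZ against normal. Without model libraries 2 and 3 the XLHZ against model value was -0.053 and the model against normal value -0.44. Without XLHZ library 1 the XLHZ against model value was -0.57 and the XLHZ against normal value -0.24, which was then above that of miR-125b-2-3p. Its counts ran between 39 and 208 per library. Per library, miR-125b-1-3p amounted to 1.98 ± 0.611% of miR-100-5p in XLHZ, 1.95 ± 0.246% in model and 2.07 ± 0.455% in normal libraries over a range of 1.17 to 2.58% in the 12 libraries. No other of 281 miRNAs with a mean of at least 10 CPM was nearer to miR-125b-1-3p than miR-100-5p, measured as the root mean square distance between centred log2(CPM + 0.5) values over 12 libraries (0.284, and 0.301 without model libraries 2 and 3).

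The summed muscle and nerve markers, like miR-100-5p and miR-125b-1-3p, were highest in model libraries 2 and 3. XLHZ library 2 came next in each of these sums, but not in miR-100-5p or miR-125b-1-3p. The 4 smooth muscle markers had a median log2 fold change of -0.671 for XLHZ against model, with 0 of 4 above 0, and of 0.621 for model against normal, with 4 of 4 above 0. For XLHZ against normal it was -0.058, with 0 of 4 above 0, where miR-100-5p stood at -0.44 and miR-125b-1-3p at -0.50. Over the 7 striated muscle markers the median was -0.901 for XLHZ against model, 0.899 for model against normal and -0.0168 for XLHZ against normal. Among them, 1 was above 0 in the first comparison, 6 in the second and 3 in the third. The 8 nerve markers, among them miR-9a-5p and miR-124-3p, summed to 807 to 1118 CPM in XLHZ, 949 to 1701 CPM in model and 889 to 1063 CPM in normal libraries, with the highest sums in model libraries 2 and 3. Their median log2 fold change, over the 7 that could be tested, was -0.744 for XLHZ against model, 0.611 for model against normal and -0.102 for XLHZ against normal. Of those 7, 1 was above 0 in the first comparison, 6 in the second and 2 in the third. miR-129-5p went against the others in the first and the second, at 0.14 and -0.23. None of the smooth muscle, striated muscle and nerve markers passed in those comparisons by edgeR. Their part in the values of the chromosome 8 products was not tested.

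miR-125b-5p, the product of both miR-125b hairpins, had 22218, 28194, 21103 and 22371 CPM in XLHZ libraries 1 to 4, 27960.3, 48480.0, 33889.6 and 19673 CPM in model libraries 1 to 4, and 28383, 30098, 24657 and 27986 CPM in normal libraries 1 to 4. Model library 2 was highest and model library 4 lowest of all 12, so that the model group covered both other groups. For XLHZ against model the log2 fold change was -0.49 (SE 0.24, interval -1.04 to 0.064, adjusted p 0.729) by edgeR, with -0.071 without model libraries 2 and 3 and -0.22 without model library 2 alone. It was 0.22 (SE 0.23, adjusted p 0.799) for model against normal, with -0.20 without model libraries 2 and 3. XLHZ against normal gave -0.27 (SE 0.11, interval -0.51 to -0.032), with an adjusted p of 0.493 and an unadjusted p of 0.0307. This value passed when XLHZ library 2 was left out, at -0.39 and an adjusted p of 0.0482 by edgeR. No other member passed in any of the alternatives run.

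**Figure D3:**
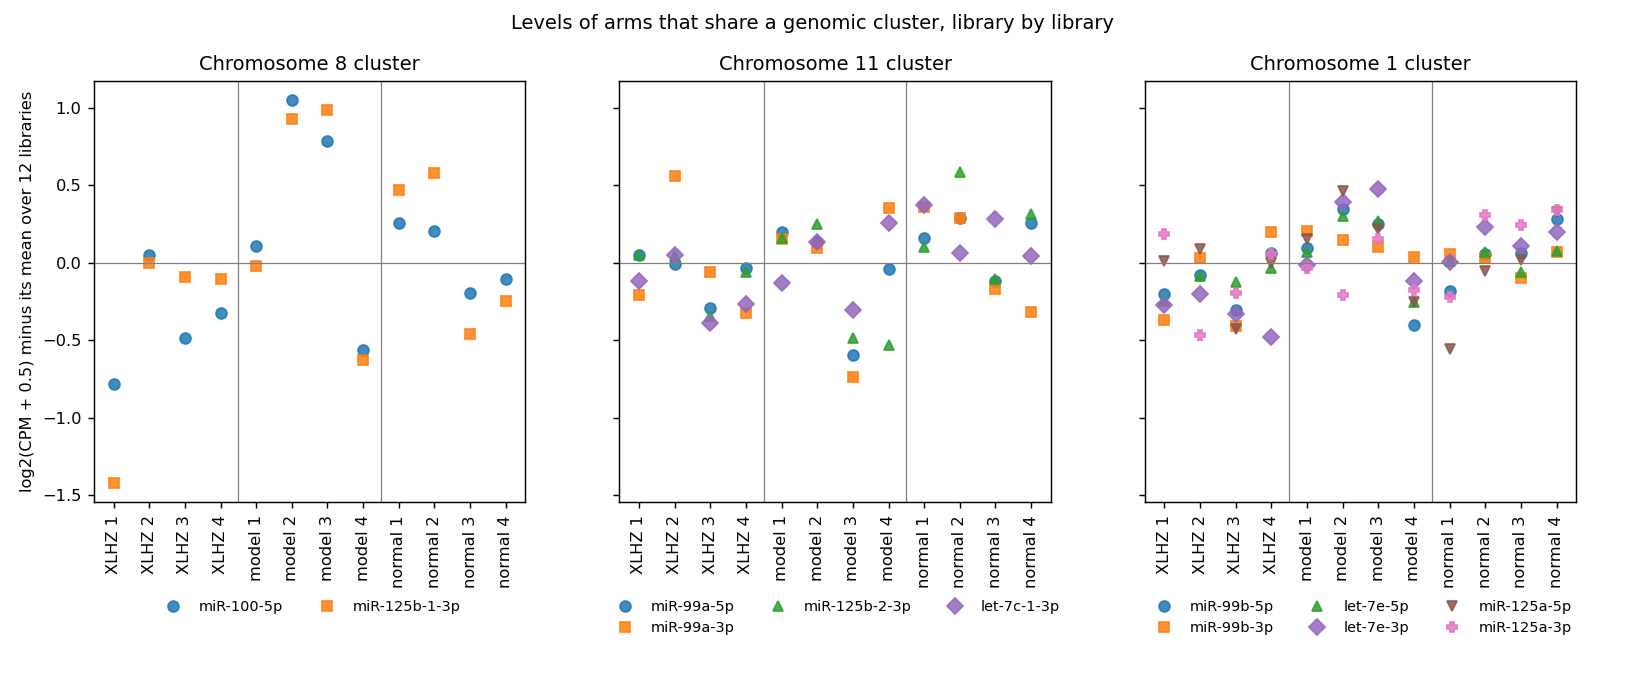
Log2(CPM + 0.5) of the tested members and let-7 arms that are cut from 1 cluster alone, in each library, minus the arm's own mean over 12 libraries. There is 1 symbol per arm and 1 panel per cluster, with the libraries ordered by group. miR-100-3p and let-7a-2-3p, too rare to be tested, are not shown. The chromosome 8 products reach furthest above 0 in model libraries 2 and 3, at 1154 and 959.9 CPM for miR-100-5p.

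The chromosome 11 products had another pattern over the 12 libraries. miR-99a-5p, the most abundant arm with the miR-99 and miR-100 seed, had 5592, 5378, 4415 and 5284 CPM in XLHZ libraries 1 to 4, 6215, 5944, 3586 and 5252 CPM in model libraries 1 to 4, and 6034, 6626, 4986 and 6454 CPM in normal libraries 1 to 4. Model library 3 was the lowest of the 12, where miR-100-5p had its second highest value, and the groups overlapped. The log2 fold change was -0.044 (SE 0.18, interval -0.46 to 0.37) for XLHZ against model, -0.20 (SE 0.19) for model against normal and -0.25 (SE 0.12, interval -0.51 to 0.0097) for XLHZ against normal, with adjusted p-values of 0.955, 0.783 and 0.567 by edgeR. With library totals the first of these values was 0.12, and without model library 3 it was -0.23 and the second was -0.0037. Without model libraries 2 and 3 the first was -0.20 and the second -0.044, where miR-100-5p had -0.21 and -0.22. miR-99a-5p and miR-100-5p are nearly identical, and how reads that match both were counted is not stated.

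miR-125b-2-3p, which marks the miR-125b hairpin of this cluster, had 50.9, 50.5, 38.5 and 47.1 CPM in XLHZ libraries 1 to 4, 54.9, 58.4, 34.9 and 33.8 CPM in model libraries 1 to 4, and 52.6, 73.9, 45.6 and 61.1 CPM in normal libraries 1 to 4. Normal library 2 was highest, model libraries 3 and 4 were lowest and the groups overlapped. Its log2 fold change was 0.019 (SE 0.23, interval -0.51 to 0.55, adjusted p 0.988) for XLHZ against model by edgeR, the only one above 0 among the members in that comparison, though it was -0.0090 with RLE size factors. It was -0.36 (SE 0.25) for model against normal and -0.35 (SE 0.18) for XLHZ against normal. It stood at 9.03 ± 0.281 per 1000 counts of miR-99a-5p in XLHZ, 8.70 ± 1.58 in model and 9.62 ± 1.06 in normal libraries, and miR-99a-5p was the miRNA nearest to it over 12 libraries (distance 0.174). Without model libraries 2 and 3 it was the second nearest, at 0.182 after miR-125b-5p at 0.16. miR-99a-3p, the rare arm of the same hairpin as miR-99a-5p, had 31.5 to 58.8 CPM in XLHZ, 23.5 to 50.9 CPM in model and 31.7 to 51.0 CPM in normal libraries, with log2 fold changes of -0.0053 for XLHZ against model, -0.049 for model against normal and -0.063 for XLHZ against normal. The model against normal value was 0.23, and the XLHZ against model value -0.28, without model libraries 2 and 3.

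The balance of the chromosome 8 and chromosome 11 clusters varied between libraries. miR-100-5p amounted to 5.78, 10.7, 8.99 and 8.43% of miR-99a-5p in XLHZ libraries 1 to 4, 9.66, 19.4, 26.8 and 7.19% in model libraries 1 to 4, and 11.0, 9.71, 9.77 and 8.02% in normal libraries 1 to 4. Model libraries 2 and 3, the libraries with the most smooth muscle markers, held the highest shares and the other 10 lay between 5.78 and 11.0%. Among the 3p arms of miR-125b, miR-125b-1-3p made up 6.90, 17.8, 21.0 and 17.8% in XLHZ libraries 1 to 4, 16.4, 26.7, 39.0 and 17.0% in model libraries 1 to 4, and 22.6, 18.3, 14.6 and 13.0% in normal libraries 1 to 4. The Wilson 95% interval was 34.9 to 43.2% in model library 3 (208 of 534 counts) and 5.09 to 9.30% in XLHZ library 1 (39 of 565 counts), which covers counting error only. These shares give the ratio of the 3p arms and not the share of miR-125b-5p that came from each locus. XLHZ library 1, with the lowest share, also had the lowest sum of smooth muscle markers, 97611 CPM. XLHZ library 2, whose sum of 277213 CPM came next after those of model libraries 2 and 3, had shares of 10.7 and 17.8%, within the range of the other libraries. The relation of the shares to these markers was not tested.

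**Figure D4:**
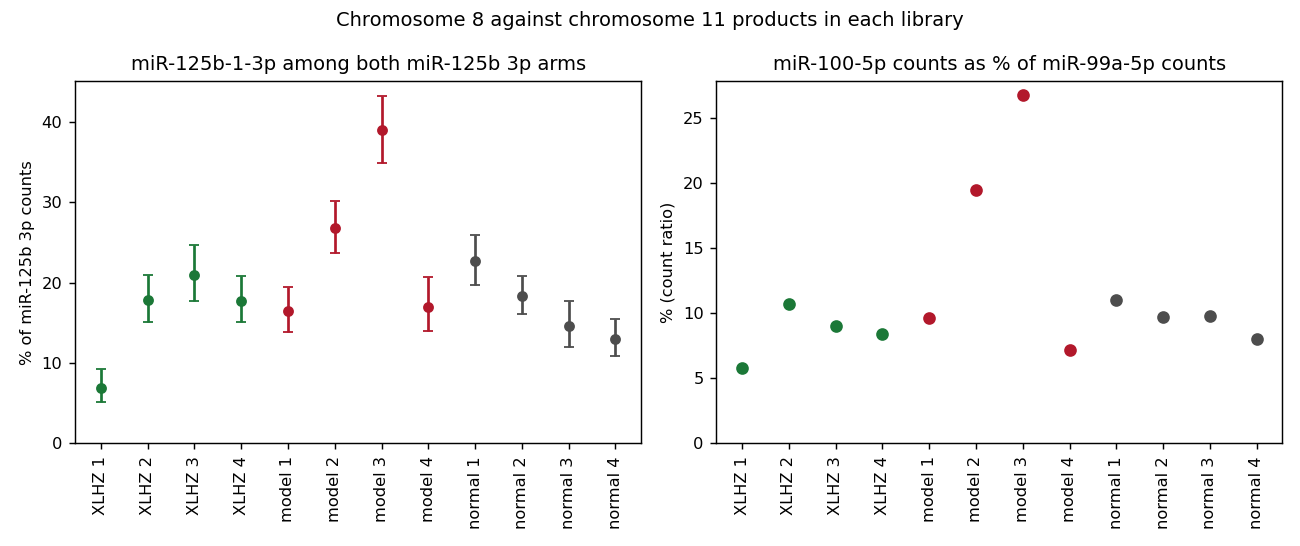
Left, miR-125b-1-3p counts as a percentage of both miR-125b 3p arms in each library, with bars for the Wilson 95% interval, and right, miR-100-5p counts as a percentage of miR-99a-5p counts, with libraries ordered and coloured by group (XLHZ, model, normal). Model library 3 (39.0% left, 26.8% right) is highest and XLHZ library 1 (6.90% left, 5.78% right) lowest in both panels.

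Over the 12 libraries the highest value of each of the 4 family members on chromosome 1 was between 1.55 and 2.03 times its lowest, against 3.57 times for miR-100-5p and 5.9 times for miR-125b-1-3p. The lowest miR-125b-1-3p value was that of XLHZ library 1, at 39 counts. On chromosome 11 the same ratio was 1.85 for miR-99a-5p, 2.19 for miR-125b-2-3p and 2.50 for miR-99a-3p. miR-99b-5p had 1218, 1323, 1133 and 1464 CPM in XLHZ libraries 1 to 4, 1492, 1779, 1663 and 1057 CPM in model libraries 1 to 4, and 1234, 1456, 1464 and 1700.2 CPM in normal libraries 1 to 4. The highest and the lowest value were both in the model group, and the groups overlapped. Its log2 fold change was -0.24 (SE 0.18) for XLHZ against model, 0.029 (SE 0.19) for model against normal and -0.22 (SE 0.13) for XLHZ against normal. The first was -0.038 and the second -0.18 without model libraries 2 and 3. miR-125a-5p, which shares its seed with miR-125b-5p, had 12611, 13329, 9288 and 12489 CPM in XLHZ libraries 1 to 4, 13891, 17268, 14545 and 10503 CPM in model libraries 1 to 4, and 8499, 12081, 12645 and 15722 CPM in normal libraries 1 to 4. Normal libraries 1 and 4 held the lowest and the second highest value, so that the normal group covered the XLHZ group. The log2 fold change was -0.26 (SE 0.17, interval -0.64 to 0.13) for XLHZ against model, 0.20 (SE 0.20) for model against normal and -0.067 (SE 0.19) for XLHZ against normal. The first was -0.14 without model library 2 and -0.084 without model libraries 2 and 3. The second ran between 0.061 without normal library 1 and 0.36 without normal library 4, and the third between -0.20 and 0.090 without the same libraries. The 3p arms of both hairpins had between 8.33 and 18.2 CPM, and miR-125a-3p amounted to 0.938 ± 0.214 per 1000 counts of miR-125a-5p in XLHZ, 0.8205 ± 0.172 in model and 1.11 ± 0.115 in normal libraries. For miR-99b the 3p arm was more common, at 11.2 ± 1.25, 11.9 ± 2.50 and 11.0 ± 1.60 per 1000 counts of the 5p arm in the same groups. These ratios differed by less than 1 SD between XLHZ and model libraries for both hairpins.

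Of the 7 arms counted for the let-7a, let-7c and let-7e hairpins of interest, 6 could be tested, and 0 passed in any comparison by edgeR or by DESeq2. At an unadjusted p under 0.05 edgeR marked 1 of the 6 in XLHZ against model (4.23% of all miRNAs), 0 in model against normal (7.2%) and 3 in XLHZ against normal (8.73%). One of these arms, let-7c-2-3p, is cut from a hairpin outside the clusters. let-7a-2-3p had 0 to 5 counts per library. let-7e-3p, from the chromosome 1 cluster, had 10.5, 11.1, 10.1 and 9.07 CPM in XLHZ libraries 1 to 4, 12.7, 17.0, 18.1 and 11.8 CPM in model libraries 1 to 4, and 12.9, 15.2, 13.9 and 14.9 CPM in normal libraries 1 to 4. All 4 XLHZ libraries lay below all libraries of both other groups. On the log2 scale XLHZ against model differed by -0.56 (SE 0.20, adjusted p 0.729), with -0.51 (SE 0.14, adjusted p 0.269) for XLHZ against normal by edgeR. The first was -0.31 without model libraries 2 and 3, and model against normal was 0.065 with them and -0.18 without them. It was the 1 miRNA of 401 whose XLHZ libraries all lay below the model libraries. In XLHZ against normal, let-7c-5p (log2 fold change -0.15, SE 0.052, adjusted p 0.449) and let-7a-5p (-0.11, SE 0.054, adjusted p 0.567) also did not overlap, both lower in XLHZ, where 2.24% of all miRNAs were lower without overlap. The highest XLHZ and lowest normal values were close, 44464 and 44679 CPM for let-7c-5p and 48578 and 49027 CPM for let-7a-5p. Before TMM scaling both arms overlapped, since their shares of the library total were larger in XLHZ library 1 than in normal library 2. let-7c-5p averaged 42169 ± 1548 CPM in XLHZ and 45910.2 ± 1351 CPM in normal libraries, and let-7a-5p 47959 ± 635 CPM in XLHZ and 50529 ± 1949 CPM in normal libraries (SD, n = 4 each). let-7c-1-3p, the rare arm of the chromosome 11 let-7 hairpin, averaged 8.73 ± 1.23 CPM in XLHZ, 9.94 ± 1.81 CPM in model and 11.4 ± 1.35 CPM in normal libraries, and its groups overlapped. XLHZ against normal gave -0.42 on the log2 scale (SE 0.17, unadjusted p 0.0332, adjusted p 0.493 by edgeR). let-7c-2-3p averaged 54.3 ± 6.16 CPM in XLHZ, 59.7 ± 10.3 CPM in model and 60.7 ± 9.07 CPM in normal libraries. let-7e-5p averaged 3998 ± 249 CPM in XLHZ, 4692 ± 789.9 CPM in model and 4415 ± 194 CPM in normal libraries. let-7a-5p and let-7c-5p are also cut from hairpins outside these clusters, and nearly equal let-7 arms can share reads.

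The profile nearest to miR-100-5p over 12 libraries was that of miR-9a-5p (distance 0.179), a miRNA on the list of nerve markers. miR-10a-3p (0.191), miR-10a-5p (0.203), miR-145-5p (0.214) and miR-145-3p (0.224) followed. Within the family, miR-125b-5p was the 6th nearest to it (0.224), miR-125b-1-3p the 11th (0.284) and miR-99a-5p the 113th (0.576). Without model libraries 2 and 3, miR-10a-3p (0.126) and miR-10a-5p (0.137) came first and miR-99a-5p was the 18th (0.269). For miR-125b-5p the nearest outside the family were miR-10a-3p (0.12), miR-10a-5p (0.14), miR-374-5p (0.187), miR-137-3p (0.191) and let-7e-5p (0.202). For miR-99a-5p they were miR-23b-3p (0.143), miR-152-3p (0.159), miR-27b-3p (0.163), miR-345-5p (0.169) and miR-26b-5p (0.198). These distances describe the same 12 libraries and share their depth and composition.

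miR-10a-5p, whose sequence is printed above, averaged 6047 ± 1444 CPM in XLHZ, 8821 ± 3667 CPM in model and 6810.1 ± 675 CPM in normal libraries (SD, n = 4 each). Its highest value, 13945 CPM, was in model library 2. The log2 fold change was -0.56 (SE 0.29, adjusted p 0.729) for XLHZ against model and 0.37 (SE 0.26, adjusted p 0.662) for model against normal by edgeR, and without model libraries 2 and 3 the first was -0.16 and the second -0.039. Without model library 2 alone the first was -0.24. miR-351-5p, which has the miR-125 seed, averaged 72.3 ± 10.9 CPM in XLHZ, 61.4 ± 10.0 CPM in model and 67.3 ± 14.9 CPM in normal libraries, with log2 fold changes of 0.21 for XLHZ against model, -0.14 for model against normal and 0.070 for XLHZ against normal. Leaving out model libraries 2 and 3 gave 0.046 for the first and 0.035 for the second. miR-10b-5p had 0 to 4 counts per library and could not be tested, whereas the other arm of its hairpin, miR-10b-3p, could. miR-10b-5p and miR-10a-5p are close in sequence, and how reads that match both were counted is not stated.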

How the data were processed

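Small RNA of the gastric mucosa was prepared for sequencing with QIAseq chemistry, per the labels' protocol. The authors deposited count tables of 639 miRNAs (normal and model) and 632 miRNAs (model and XLHZ), with counts and CPM per library. The deposited CPM equals a count divided by the library's total, on a common scale. Bowtie and DESeq are named in the submitters' processing notes, without versions, and neither the build nor whether the deposited counts are of reads or of molecular identifiers could be read from the labels or headers. The tables were joined over the model libraries, whose counts were identical for 621 of 622 shared miRNAs, and the 1 that differed (miR-20b-3p) was left out of the joined levels. Within each group, every pair of libraries differed by more than counting noise (chi-square per degree of freedom at least 172.1).

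For each comparison the 8 libraries concerned were fitted in edgeR 4.0.16 under R 4.3.3 (TMM, filterByExpr with a minimum count of 10, quasi-likelihood test, Benjamini-Hochberg adjustment at 0.05), and tested on simulated data first. XLHZ against normal used the joined counts. Standard errors were taken from the log2 fold change and the F statistic. Alternatives were DESeq2 1.42.0, RLE and upper-quartile factors, library totals, other filters, all 12 libraries in 1 fit, a replicate block and leaving out libraries. Distances between profiles used a pseudocount of 0.5 CPM and miRNAs with a mean of at least 10 CPM. Intervals of shares cover counting error only. All members by name, let-7a-5p, let-7a-2-3p and every let-7c and let-7e arm, miR-10a-5p, miR-10b-5p, miR-351-5p and the 5 nearest profiles of miR-100-5p, miR-125b-5p and miR-99a-5p were named. The members and lists were chosen with earlier results of these data known.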

Additional observations from a re-analysis of the deposited data

Results flagged for a closer look

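In 54 groups of 4 libraries, 1 for each miRNA described and group, the highest or lowest library was compared with the other 3, and 2 groups had a library that stood apart by Dixon's criterion. Chance gives such a library in about 1 of 20 groups. miR-125b-1-3p had 3.77 CPM in XLHZ library 1, whereas XLHZ libraries 2 to 4 lay between 10.2 and 10.9 CPM. let-7c-5p had 44464 CPM in XLHZ library 3, whereas the other XLHZ libraries lay between 41071 and 41574 CPM.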

How the results depend on the processing

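The count of members passing was 0 under every alternative in each comparison, except in XLHZ against normal without XLHZ library 2, where miR-125b-5p passed. The passing miRNAs over the whole tables numbered 1 in model against normal, and 2 with upper-quartile factors, library totals or a minimum of 50 counts in 4 libraries, 3 with no count filter, 7 with DESeq2 and 4 with all 12 libraries in 1 fit. Leaving out 1 library gave 1 to 4, with 4 only without model library 4. In XLHZ against model the 1 became 0 without model libraries 2 and 3, and 0 to 1 when leaving out 1 library, with 0 without any 1 of the model libraries or without XLHZ library 1 or 4. In XLHZ against normal the 6 became 2 with all 12 libraries in 1 fit, and 4 to 7 when leaving out 1 library, with 4 without XLHZ library 3, normal library 2 or normal library 4. The cause was not tested. The setting without model libraries 2 and 3 for the let-7 arms and relatives was added after seeing the data.

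Same-numbered libraries deviated together for number 2 (correlations 0.209 to 0.487) and not for every number (lowest -0.352, for number 1), and not every library correlated best with its own number, so the numbers were not taken to pair the libraries. With the replicate block 1, 1 and 5 miRNAs passed in model against normal, XLHZ against model and XLHZ against normal, and 0 members. Over all alternatives the members' signs turned in 14 of 170 values for model against normal, 20 of 170 for XLHZ against model and 7 of 160 for XLHZ against normal. Rare 3p arms, with 39 counts at the lowest for miR-125b-1-3p, limit the precision of the arm ratios.

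Log2 fold changes of opposite sign, none past the threshold, and the ranges over left-out libraries that cross 0 or the threshold were as follows. With RLE size factors, model against normal gave 0.00085 for let-7c-2-3p and 0.0051 for let-7c-5p. With RLE size factors, XLHZ against model gave -0.0090 for miR-125b-2-3p. With upper-quartile factors, model against normal gave 0.029 for let-7c-2-3p, 0.024 for let-7c-5p and 0.013 for miR-99a-3p. With upper-quartile factors, XLHZ against normal gave 0.011 for miR-125a-5p. With library totals, model against normal gave -0.086 for let-7e-3p, -0.062 for let-7e-5p, -0.014 for miR-99b-3p and -0.13 for miR-99b-5p. With library totals, XLHZ against model gave 0.15 for let-7a-5p, 0.0045 for let-7c-2-3p, 0.063 for let-7c-5p, 0.15 for miR-125a-3p, 0.11 for miR-99a-3p and 0.12 for miR-99a-5p. With DESeq2, model against normal gave 0.0015 for let-7c-2-3p and 0.0051 for let-7c-5p. With DESeq2, XLHZ against model gave -0.0085 for miR-125b-2-3p. Without model libraries 2 and 3, model against normal gave 0.011 for let-7c-2-3p, -0.18 for let-7e-3p, -0.084 for let-7e-5p, -0.22 for miR-100-5p, -0.039 for miR-10a-5p, -0.44 for miR-125b-1-3p, -0.20 for miR-125b-5p, 0.035 for miR-351-5p, 0.23 for miR-99a-3p and -0.18 for miR-99b-5p. With no count filter, XLHZ against model gave 0.024 for let-7a-5p, 0.0056 for miR-125a-3p and 0.020 for miR-99a-3p. With the replicate block, XLHZ against model gave 0.0055 for miR-99a-3p. Leaving out 1 library in model against normal gave -0.094 to 0.095 for let-7c-2-3p, -0.049 to 0.045 for let-7c-5p, -0.0024 to 0.19 for let-7e-3p, -0.033 to 0.40 for miR-125b-5p, -0.22 to 0.034 for miR-351-5p, -0.18 to 0.19 for miR-99a-3p and -0.061 to 0.17 for miR-99b-5p. Leaving out 1 library in XLHZ against model gave -0.074 to 0.019 for let-7a-5p, -0.15 to 0.071 for miR-125a-3p, -0.13 to 0.16 for miR-125b-2-3p, -0.24 to 0.13 for miR-99a-3p and -0.23 to 0.034 for miR-99a-5p. Leaving out 1 library in XLHZ against normal gave -0.20 to 0.090 for miR-125a-5p, -0.39 to -0.21 for miR-125b-5p, -0.018 to 0.23 for miR-351-5p and -0.30 to 0.057 for miR-99a-3p.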
